A study of Mus musculus with 9 samples.

Results

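The 9 genes described here carry cholesterol through its storage and export in the cell: Nceh1, Lipa and Soat1 for hydrolysis and synthesis of cholesterol esters, Npc1 and Npc2 for export from lysosomes, Abca1 and Abcg1 for efflux, and Nr1h2 and Mylip for control of efflux and uptake. They were taken by name from a list, by a rule that sets no threshold on measured values, out of 24421 genes in the count table. The list was chosen with earlier results of these data known, so the 9 are not a blind selection. All 9 were present and passed the filter on low counts. They were measured by poly(A) RNA-seq in 4T1 cells, a metastatic mammary carcinoma line from BALB/c mice that lacks ER, PR and HER2, grown for 5 days in serum-containing RPMI medium. The 3 groups of 3 libraries each were 3D spheroids on soft agar without added palmitate, which per the study's methods received the matching carrier, 3D spheroids with 75 µM palmitate, and 2D monolayers with 75 µM palmitate. 2D cultures without palmitate are not analysed here, and palmitate was therefore compared in 3D only. All groups are 1 cell line, and the sample labels do not say whether the libraries came from separate cultures, so the p-values measure only the spread between these libraries.

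Cells store surplus cholesterol as esters in lipid droplets, and lysosomes receive esters with the lipoprotein that cells take up. Soat1 (ACAT1) joins cholesterol to a fatty acyl-CoA in the endoplasmic reticulum, neutral cholesterol ester hydrolase Nceh1 and lysosomal acid lipase Lipa split the ester again, and Npc2 hands the cholesterol freed in lysosomes to the membrane protein Npc1. Abca1 and Abcg1 move cholesterol to apolipoproteins and HDL outside the cell. Both are targets of the oxysterol receptors LXRα (Nr1h3) and LXRβ (Nr1h2), as is Mylip (IDOL), a ubiquitin ligase that limits lipoprotein uptake.

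Total counts per library lay between 6595514 and 31177756, and the smallest library was replicate 3 of the 3D cultures with palmitate. Rn45s, a ribosomal RNA precursor, took 1.77% to 5.38% of them. All 8 epithelial markers passed the filter, with summed levels of 4156 to 4496 CPM (counts scaled to a common library total, by TMM) in 2D and 5115 to 5408 CPM in 3D with palmitate. Between these groups 5 of the 8 were higher in 3D and 2 were lower. The lower ones were Krt7, at a log2 fold change of -0.51 (edgeR, adjusted p = 1.27e-05), and Cldn4, at -0.82 (edgeR, adjusted p = 1.87e-06). Of 10 macrophage markers 2 passed, Cd68 and Mrc1, and the list summed to 26.6 to 29.5 CPM in 2D, 8.14 to 9.45 CPM in 3D without and 10.3 to 12.5 CPM in 3D with palmitate, with Adgre1 at 0 throughout. Of 8 fibroblast markers 4 passed, nearly all of the signal was Pdgfra, and the sum was 34.0 to 35.1 CPM in 2D and 94.1 to 112.7 CPM in 3D with palmitate, with Lum at 0. Of its other members Col1a1 and Col1a2 were lower in 3D than in 2D with palmitate, at means of 0.845 against 2.18 CPM (edgeR, adjusted p = 0.0139) and 0.063 against 1.31 CPM (edgeR, adjusted p = 1.28e-05). No marker of 6 for endothelium or of 5 for adipocytes passed. The part of these lists in the results was not tested.

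With palmitate in both cultures, 3D exceeded 2D for 7 of the 9 genes and 0 were lower at an adjusted p-value under 0.05 (edgeR quasi-likelihood test, Benjamini-Hochberg over 12575 genes). Abca1 differed most, at 6.12 times its level in 2D, followed by Nceh1 at 1.76 times. In such bulk libraries a change in the level per cell and a change in the share of cells that express a gene cannot be told apart. The median log2 fold change of the 9 was 0.45, against 0.01 for all genes. This comparison moved most of the transcriptome: 68.3% of all genes tested were called, 34.5% higher and 33.9% lower, and the 3 libraries of one group lay wholly above or below those of the other for 69.4% of genes, as for 7 of the 9 here. Palmitate added to 3D cultures changed 2 of the 9, Nceh1 upwards and Mylip downwards, where 2.19% of all genes were called, 1.38% higher and 0.811% lower. The groups did not overlap for 3 of the 9, these 2 and Npc1, against 18.6% of all genes. The 2 comparisons share the 3D libraries with palmitate and are not independent.

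**Figure D1:**
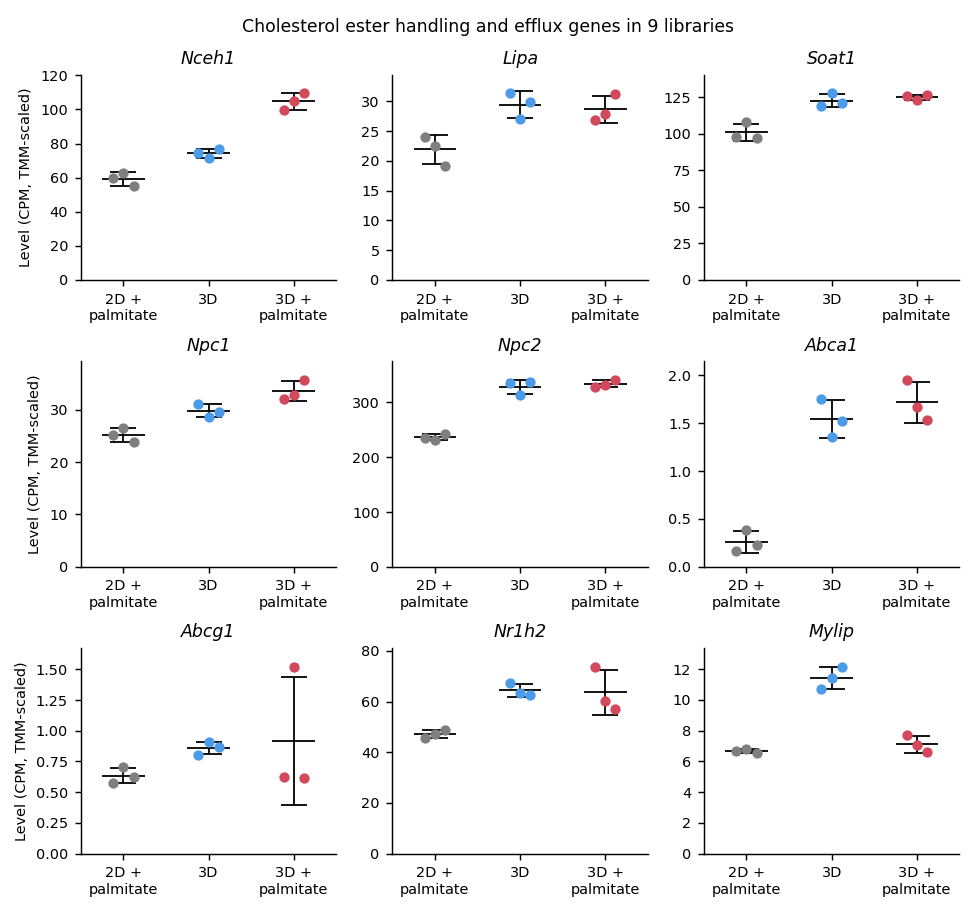
Level of each gene (CPM, TMM-scaled, linear axis from 0) in the 9 libraries. Points are libraries, horizontal lines the mean and bars ± 1 SD of 3 libraries. Nceh1 is lowest in 2D with palmitate, higher in 3D without and highest in 3D with palmitate. Abca1 is near 0 in 2D, and Mylip is high in 3D without palmitate only.

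Nceh1, the hydrolase that acts on esters outside the lysosome, was the 1 gene of the 9 called in both comparisons. Its level was 59.6, 62.9 and 55.1 CPM in 2D with palmitate, 74.4, 71.5 and 76.7 CPM in 3D without palmitate and 99.5, 105 and 109 CPM in 3D with palmitate. No library of one group reached into the range of another. The difference between 3D and 2D was a log2 fold change of 0.82 ± 0.069 (SE, n = 3 a group, edgeR, adjusted p = 8.90e-08). In 3D, palmitate raised Nceh1 by 0.49 ± 0.068 on the log2 scale, or 40.6% (edgeR, adjusted p = 0.00178, 95% interval 0.35 to 0.64). Leaving out any of the 9 libraries gave log2 fold changes of 0.46 to 0.53 for palmitate, with adjusted p of 0.000404 to 0.0193 (edgeR). The gene lies on the plus strand of chromosome 3 (GRCm38, chr3:27182965-27284608). The window from 250 bases before to 50 after its RefSeq start (GRCm38.p6, chr3:27182754-27183053, plus strand) is printed because Nceh1 is the gene that rose in both comparisons. The capitals mark its 1 copy of CACGTG, an E-box that reads the same on both strands, which starts 26 bases before the start site. Of 32851 such windows of 27025 genes, 7.15% hold this motif.
Nceh1: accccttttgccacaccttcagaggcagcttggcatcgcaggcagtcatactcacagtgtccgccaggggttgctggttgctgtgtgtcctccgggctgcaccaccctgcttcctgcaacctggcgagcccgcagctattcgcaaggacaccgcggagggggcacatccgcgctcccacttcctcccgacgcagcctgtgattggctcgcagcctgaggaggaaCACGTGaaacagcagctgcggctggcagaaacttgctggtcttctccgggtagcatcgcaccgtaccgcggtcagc

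Lipa, the acid lipase that hydrolyses esters inside the lysosome, was higher in 3D but was not called with palmitate. It stood at 24.1, 22.5 and 19.2 CPM in 2D, at 31.4, 27.0 and 29.9 CPM in 3D without and at 26.9, 28.0 and 31.2 CPM in 3D with palmitate. Every 3D library lay above every 2D library, and the 2 sets of 3D libraries overlapped. The log2 fold change was 0.38 ± 0.098 for 3D over 2D (SE, edgeR, adjusted p = 0.00331) and -0.06 for palmitate, with a 95% interval of -0.27 to 0.15. Lipa lies on the minus strand of chromosome 19 (GRCm38, chr19:34492318-34527474).

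Soat1, the enzyme that makes the ester, showed the smallest of the 7 increases. Its 3 libraries in 2D had 98.2, 108 and 97.0 CPM, those in 3D without palmitate 119, 128 and 121 CPM, and those in 3D with palmitate 126, 123 and 127 CPM. The log2 fold change for 3D over 2D was 0.31 ± 0.063 (SE, edgeR, adjusted p = 0.000553). This call and its sign depended on the treatment of sequence composition: after the dependence of each library on GC content and transcript length had been taken out, the value was -0.10 (edgeR, adjusted p = 0.159). Palmitate gave a log2 fold change of 0.03, with a 95% interval of -0.11 to 0.16. Soat1 is on the minus strand of chromosome 1 (GRCm38, chr1:156424525-156474331).

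The ratio of Nceh1 to Soat1 separated the 3D cultures with palmitate from the rest. For palmitate in 3D it restates the change of Nceh1 (log2 fold change 0.49), as Soat1 (0.03) and Lipa (-0.06) were not called. The share of all gene pairs whose ratios do not overlap was not computed. Read counts of Nceh1 divided by those of Soat1 in the same library were 0.607, 0.582 and 0.568 in 2D with palmitate, 0.623, 0.559 and 0.634 in 3D without and 0.791, 0.853 and 0.864 in 3D with palmitate. The 3D libraries with palmitate lay above all others, and the other 2 groups overlapped. The ratio of Nceh1 to Lipa was also highest in the 3D libraries with palmitate, with means of 2.72 ± 0.209 in 2D, 2.53 ± 0.141 in 3D without and 3.66 ± 0.135 in 3D with palmitate (SD, n = 3). The ratio of Lipa to Soat1 overlapped between the groups in both comparisons, at 0.217 ± 0.025, 0.240 ± 0.026 and 0.229 ± 0.016. These ratios do not depend on scaling between libraries, and with 3 libraries against 3 an exact permutation test cannot go below p = 0.1, so they are given without a test. They were not corrected for GC content and transcript length, a correction that turned the Soat1 change for 3D over 2D to -0.10.

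**Figure D2:**
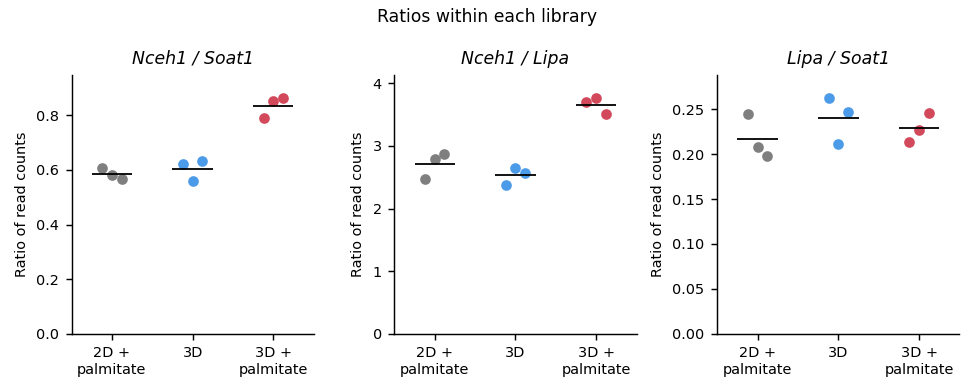
Ratio of read counts of pairs of genes within each library (linear axis from 0). Points are libraries and lines group means. Nceh1 over Soat1 and Nceh1 over Lipa are higher in the 3 libraries of 3D cultures with palmitate than in the other 6, and Lipa over Soat1 overlaps between groups.

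Both genes of lysosomal cholesterol export were higher in 3D. Npc2, the soluble carrier, measured 235, 232 and 242 CPM in 2D, 336, 314 and 337 CPM in 3D without and 329, 332 and 341 CPM in 3D with palmitate. Npc1, the membrane protein that accepts cholesterol from it, measured 25.2, 26.6 and 23.9 CPM, 31.1, 28.7 and 29.5 CPM, and 32.1, 32.8 and 35.7 CPM in the same order. For both genes each 3D library exceeded each 2D library. The log2 fold changes for 3D over 2D were 0.50 ± 0.057 for Npc2 (SE, edgeR, adjusted p = 2.48e-06) and 0.40 ± 0.077 for Npc1 (SE, edgeR, adjusted p = 0.000340). The Npc1 value fell to 0.10 and was no longer called after removal of the GC and length trend (edgeR, adjusted p = 0.159).

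With palmitate, Npc2 overlapped between the 3D groups and had a log2 fold change of 0.02 with a 95% interval of -0.10 to 0.14. Npc1 was above every library without palmitate in all 3 libraries with it, but its log2 fold change of 0.16 was not called (edgeR, adjusted p = 0.305, 95% interval -0.01 to 0.32). The ratio of Npc2 to Npc1 counts was 9.97 ± 0.361 with and 11.1 ± 0.327 without palmitate (SD, n = 3), with no overlap. Neither gene was called with palmitate (edgeR, adjusted p = 0.902 for Npc2). Of single genes 18.6% had no overlap in this comparison, and the share of gene pairs was not computed, so the ratio is given as a description only. Npc1 shares exon bases with the genes Gm15956 and Rmc1 on the opposite strand. The libraries were made with a stranded kit and the strand setting of the counting is not given in the sources used here, so reads of these genes may be mixed with its own. Npc2 lies on chromosome 12 (GRCm38, chr12:84754562-84773152, minus strand) and Npc1 on chromosome 18 (GRCm38, chr18:12189692-12236400, minus strand).

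**Figure D3:**
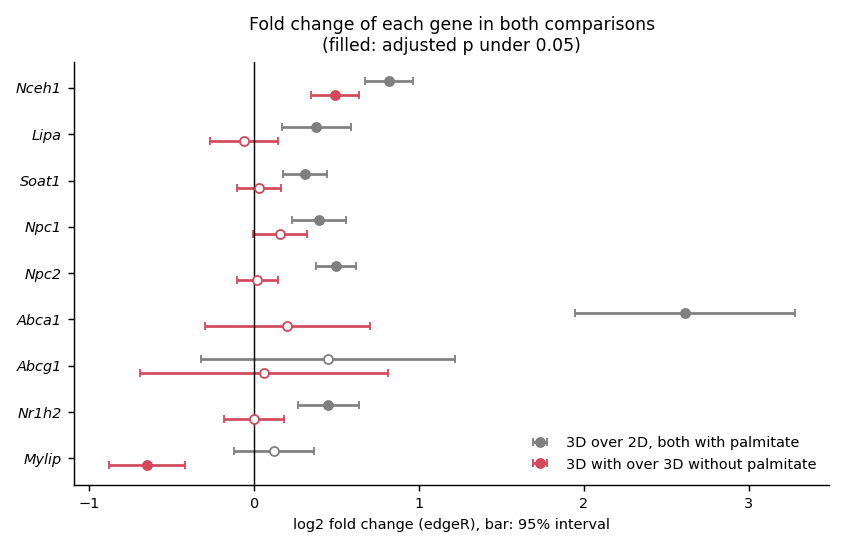
log2 fold change (edgeR) of each gene for 3D over 2D with palmitate (grey) and for 3D with over without palmitate (red). Bars are 95% intervals and filled points have an adjusted p under 0.05. Of the 9 genes, 7 are filled in grey, and Nceh1 and Mylip are filled in red on opposite sides of 0.

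Abca1, the transporter that loads cholesterol onto apolipoprotein A-I, was scarce in every group and scarcest in 2D. Reads per library numbered 2, 12 and 5 in 2D, 37, 21 and 28 in 3D without and 53, 22 and 10 in 3D with palmitate. The corresponding levels were 0.165, 0.384 and 0.223 CPM, then 1.75, 1.36 and 1.52 CPM, then 1.95, 1.67 and 1.53 CPM. All 6 libraries of 3D cultures lay above all 3 of 2D. The log2 fold change for 3D over 2D was 2.61 ± 0.31 (SE, edgeR, adjusted p = 3.58e-06) with a 95% interval of 1.95 to 3.28. Leaving out libraries moved it between 2.46 and 3.09, and it was 2.18 after removal of the GC and length trend. For palmitate in 3D the log2 fold change was 0.20 with an interval of -0.30 to 0.70 and was not called (edgeR, adjusted p = 0.719). At this depth a rise or a fall within that interval is compatible with the counts. The gene is on chromosome 4 (GRCm38, chr4:53030787-53159895, minus strand).

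The window around the Abca1 start (RefSeq, GRCm38.p6, chr4:53159846-53160145, minus strand, printed in the direction of transcription) is shown because LXR receptors are known to act on this gene. It was searched on both strands for AGGTCA, 4 bases of any kind, and AGGTCA, the DR4 arrangement that LXR with its partner RXR prefers. The best match lies on the strand opposite to the printed one, so its letters appear as the reverse complement. It differs from the motif at 3 of 12 half-site bases, and its 2 half-sites are in capitals, beginning 67 bases before the start site. With up to 3 mismatches 21.9% of the 32851 windows hold a match, and with up to 2, the limit set for a match, 3.02%, so a match of this quality is common. Of the 9 genes 7 had a window. Of these 0 had a match with up to 2 mismatches, and Abca1 alone had one with up to 3. The capitals nearer the 5′ end mark 1 copy of CACGTG, starting 147 bases before the start site, and among the 7 windows only those of Abca1 and Nceh1 hold it. A match, or the lack of one, describes the letters and not the binding of a factor, which was not tested.
Abca1: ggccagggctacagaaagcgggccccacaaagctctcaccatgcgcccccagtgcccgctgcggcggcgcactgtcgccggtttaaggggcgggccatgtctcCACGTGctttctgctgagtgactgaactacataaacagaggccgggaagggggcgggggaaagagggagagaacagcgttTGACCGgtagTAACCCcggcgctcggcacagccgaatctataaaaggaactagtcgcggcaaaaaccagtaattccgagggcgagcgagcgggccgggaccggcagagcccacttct

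Abcg1, which passes cholesterol to HDL, was at the limit of detection. It had 7, 22 and 14 reads in 2D, 17, 14 and 16 in 3D without and 17, 20 and 4 in 3D with palmitate, or 0.579, 0.705 and 0.624 CPM, 0.803, 0.905 and 0.868 CPM, and 0.626, 1.52 and 0.613 CPM. In 3D with palmitate, 1 library stood far above the other 2. The log2 fold change for 3D over 2D was 0.45 ± 0.36 (SE, edgeR, adjusted p = 0.282) and changed to -0.06 without that library, replicate 2 (edgeR, adjusted p = 0.882). For palmitate it was 0.06, with an interval of -0.69 to 0.81, and -0.46 without that library. Counts of Abca1, the longer transcript, exceeded those of Abcg1 in all 6 libraries of 3D cultures. Abca1 counts fell below those of Abcg1 in all 3 of 2D, where their ratio was 0.396 ± 0.134 (SD, n = 3). Per kilobase of transcript the ratio was 0.225 ± 0.076 in 2D, 1.03 ± 0.194 in 3D without and 1.27 ± 0.588 in 3D with palmitate. The order of the counts in 3D is therefore not read as a difference in level. The gene is on chromosome 17 (GRCm38, chr17:31057675-31117988, plus strand).

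Nr1h2, the more widely expressed of the LXR receptors, was also higher in 3D. It measured 45.7, 47.1 and 48.7 CPM in 2D, 67.3, 63.3 and 62.8 CPM in 3D without and 73.7, 60.4 and 57.0 CPM in 3D with palmitate. No 3D library fell into the 2D range. The log2 fold change for 3D over 2D was 0.45 ± 0.086 (SE, edgeR, adjusted p = 0.000293), and that for palmitate was 0.00, with a 95% interval of -0.18 to 0.18. Its relative LXRα (Nr1h3), at 2.23, 1.79 and 2.85 CPM in 2D and 1.18, 1.75 and 0.613 CPM in 3D with palmitate, went the other way. Nr1h3 had a log2 fold change of -0.84 ± 0.28 (SE, edgeR, adjusted p = 0.0140), a call that did not hold without replicate 1 from 3D with palmitate (edgeR, adjusted p = 0.0751) or without replicate 3 of 2D (edgeR, adjusted p = 0.0784). Nr1h2 lies on chromosome 7 (GRCm38, chr7:44549616-44553951, minus strand).

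Mylip, the ligase that limits lipoprotein uptake, fell with palmitate in 3D. It measured 6.70, 6.79 and 6.55 CPM in 2D with palmitate, 10.7, 11.4 and 12.1 CPM in 3D without palmitate and 7.69, 7.06 and 6.59 CPM in 3D with palmitate. The 3D cultures without palmitate were highest with no overlap, and the groups with palmitate, 3D and 2D, overlapped. Palmitate lowered Mylip in 3D by 36.4%, a log2 fold change of -0.65 ± 0.11 (SE, edgeR, adjusted p = 0.00667, 95% interval -0.88 to -0.42). Its adjusted p stayed between 0.00267 and 0.0483 with each library left out (edgeR), and rose to 0.0600, with a log2 fold change of -0.68, when the share of Rn45s entered the fit as a covariate. That share was 1.77% to 2.77% without and 1.81% to 5.38% with palmitate. Between 3D and 2D with palmitate the log2 fold change was 0.12 (edgeR, adjusted p = 0.358, 95% interval -0.12 to 0.36).

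Mylip is on the plus strand of chromosome 13 (GRCm38, chr13:45389742-45412022). Its RefSeq window (GRCm38.p6, chr13:45389492-45389791, plus strand) is printed because it is the gene that fell with palmitate. It holds no CACGTG on either strand, and its best DR4 match differs at 5 of 12 bases, so nothing is in capitals.
Mylip: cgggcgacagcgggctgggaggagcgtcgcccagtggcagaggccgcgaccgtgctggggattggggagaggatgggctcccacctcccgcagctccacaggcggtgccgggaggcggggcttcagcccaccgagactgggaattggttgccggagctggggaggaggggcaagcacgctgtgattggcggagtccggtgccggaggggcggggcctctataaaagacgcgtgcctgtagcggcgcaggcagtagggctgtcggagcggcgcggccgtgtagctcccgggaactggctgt

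Set side by side per length (CPM per kilobase of the longest transcript), the level of Npc2 was the highest of the 9 in every group, and those of Abca1 and Abcg1 were the lowest. In 3D with palmitate the means were 101 ± 1.93 for Npc2, 31.9 ± 4.42 for Nr1h2, 23.4 ± 1.12 for Nceh1, 15.0 ± 0.209 for Soat1, 7.37 ± 0.585 for Lipa, 5.83 ± 0.327 for Npc1, 2.32 ± 0.181 for Mylip, 0.167 ± 0.021 for Abca1 and 0.158 ± 0.089 for Abcg1 (SD, n = 3). Only the last 2 neighbours in this order overlapped. In 2D, Nceh1 at 13.2 ± 0.876 and Soat1 at 12.1 ± 0.723 also overlapped, and Abcg1, at 0.109 ± 0.011, was above Abca1, at 0.025 ± 0.011. All 9 genes were higher in 3D without palmitate than in 2D with palmitate, with no overlap, a pair of groups that differs in both culture and palmitate and was not tested. The share of all genes without overlap was not computed for this pair. For 3D against 2D with palmitate it was 69.4%, so the count is not read as a trait of the 9.

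**Figure D4:**
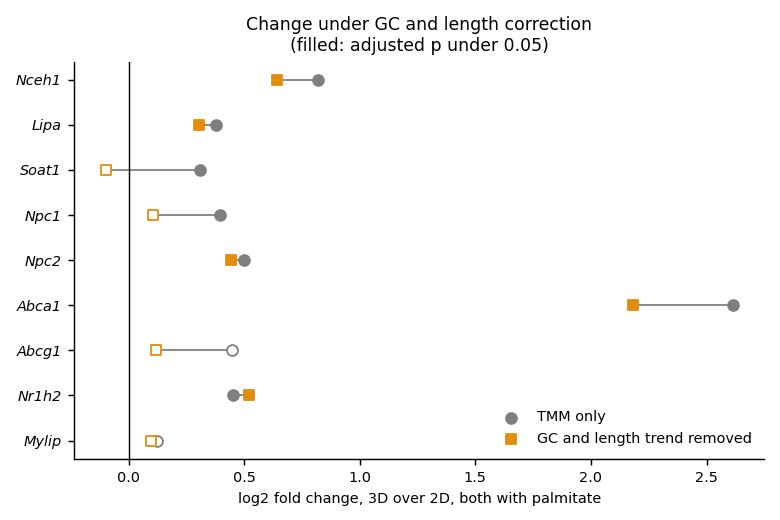
log2 fold change for 3D over 2D with palmitate with TMM scaling alone (grey circles) and after the dependence on GC content and transcript length had also been taken out (orange squares). Filled symbols have an adjusted p under 0.05. Soat1 and Npc1 lose their calls and Soat1 crosses 0, and the other 5 called genes remain filled.

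The genes whose level followed Nceh1 most closely over the 9 libraries were Hsd17b11, an enzyme of lipid droplets, with a Pearson r of log2 CPM of 0.988, then Lincpint (0.965), Slc20a2 (0.964), Adh7 (0.962) and Ttc9 (0.961). Among the 9 genes themselves, r with Nceh1 was 0.957 for Npc1 and -0.02 for Mylip. For Abca1 the closest were Rab3gap2 (0.997), Inpp5d (0.993), Ramp1 (0.992), Tpcn1 (0.991) and Cptp (0.991), and r was 0.965 for Npc2 and 0.958 for Soat1. The 9 points fall into 3 groups of libraries that share culture and scaling, so these values describe the differences between groups and carry no test.

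Beyond the 9, 69 further genes of sterol handling in 5 lists were examined, of which 52 passed the filter. In 3D against 2D with palmitate 22 were higher, 16 were lower and 14 were not called, and their median log2 fold change was 0.20. Of all genes tested, 34.5% were higher and 33.9% lower, shares that stand beside each count of a list below. After the GC and length correction the calls were 18 higher and 22 lower, while over all genes they went from 4335 higher and 4259 lower to 3816 higher and 5188 lower. In the list of uptake and receptors, 5 of 7 genes tested were higher and 2 lower. Lrp1, a large endocytic receptor, rose by 1.39 ± 0.065 on the log2 scale (SE, edgeR, adjusted p = 2.03e-10) and its chaperone Lrpap1 by 0.84 ± 0.067 (SE, edgeR, adjusted p = 5.28e-08). The HDL receptor Scarb1 had a log2 fold change of -0.67 (edgeR, adjusted p = 4.62e-06), and Vldlr, the VLDL receptor, -0.52 (edgeR, adjusted p = 0.00127).

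In the list named for ester hydrolysis and esterification, 1 of 4 genes tested was higher, the lipase Lipg, and 3 were lower. Soat2, the related esterifying enzyme of liver and intestine, was at 3.31, 3.59 and 3.61 CPM in 2D and at 0.331, 0.456 and 0.306 CPM in 3D with palmitate. Its log2 fold change of -3.25 ± 0.29 (SE, edgeR, adjusted p = 2.03e-07) was opposite in sign to that of Soat1, which itself turned to -0.10 after the GC and length correction, and the 3D libraries held 9, 6 and 2 reads. Hormone-sensitive lipase Lipe, which also splits cholesterol esters, had -0.57 (edgeR, adjusted p = 0.00314), and Lipg, endothelial lipase, which acts on HDL, had 1.17 (edgeR, adjusted p = 4.58e-08). Among the hydrolases, Nceh1 and Lipa were thus higher in 3D and Lipe was lower.

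In the list of lysosomal export and transfer between membranes, 10 of 22 tested genes were higher and 4 lower, and the oxysterol-binding protein Osbpl2 (log2 fold change 1.09 by edgeR, adjusted p = 1.32e-09) and the lysosomal membrane protein Lamp2 (0.96 by edgeR, adjusted p = 1.08e-08) had the smallest p-values among the higher genes. Tmem97, a membrane protein known as a regulator of Npc1, was lower at -0.72 (edgeR, adjusted p = 1.04e-06), as was the sterol transfer protein Gramd1a at -0.56 (edgeR, adjusted p = 0.000164). Of 7 efflux genes tested, 1 was higher, the LXR-responsive GTPase Arl4c at 0.87 (edgeR, adjusted p = 1.25e-08), and 2 were lower, caveolin Cav1 at -0.94 (edgeR, adjusted p = 1.43e-07) and apolipoprotein E (Apoe) at -1.11 (edgeR, adjusted p = 0.000151). Apoe is a known LXR target and an acceptor of cellular cholesterol. It measured 11.8, 9.51 and 14.0 CPM in 2D and 6.37, 3.57 and 5.97 CPM in 3D with palmitate, the opposite of Abca1.

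The list of LXR partners, ligand enzymes and targets divided evenly, with 5 of 12 tested genes higher and 5 lower. All genes tested also divided about evenly, with 34.5% higher and 33.9% lower. The partner receptor Rxra had a log2 fold change of 0.86 (edgeR, adjusted p = 2.31e-07), the oxysterol hydroxylase Cyp7b1 1.96 (edgeR, adjusted p = 1.55e-05) and the lipogenic regulator Srebf1 0.43 (edgeR, adjusted p = 0.00118). The phospholipid-remodelling enzyme Lpcat3, an LXR target, had -0.58 (edgeR, adjusted p = 2.29e-06), and the corepressor subunit Gps2 -0.31 (edgeR, adjusted p = 0.0106), which was not called without replicate 2 from 3D with palmitate (edgeR, adjusted p = 0.0658) or after the GC and length correction (edgeR, adjusted p = 0.0712).

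A pair of reference lists was measured beside these. Of 15 genes listed as lysosomal hydrolases, with the saposin precursor Psap among them, 12 were higher in 3D and 1 was lower. Their median log2 fold change was 0.42, close to the 0.45 of the 9 genes. Cathepsins Ctsd (1.63 by edgeR, adjusted p = 2.48e-11) and Ctsl (1.48 by edgeR, adjusted p = 9.46e-11) rose most clearly, and the sialidase Neu1 was the 1 lower, at -0.48 (edgeR, adjusted p = 7.03e-05). The other list held 15 genes of sterol synthesis and its SREBP2 control, with Srebf2, Scap and Insig1 among them. Of these, 3 were higher and 8 lower, with a median of -0.19. Among these, Dhcr7 (0.39 by edgeR, adjusted p = 0.000111) and Insig1 (0.40 by edgeR, adjusted p = 0.000715) were higher, and the synthases Fdps (-0.91 by edgeR, adjusted p = 6.63e-06) and Lss (-0.77 by edgeR, adjusted p = 7.77e-06) were lower.

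**Figure D5:**
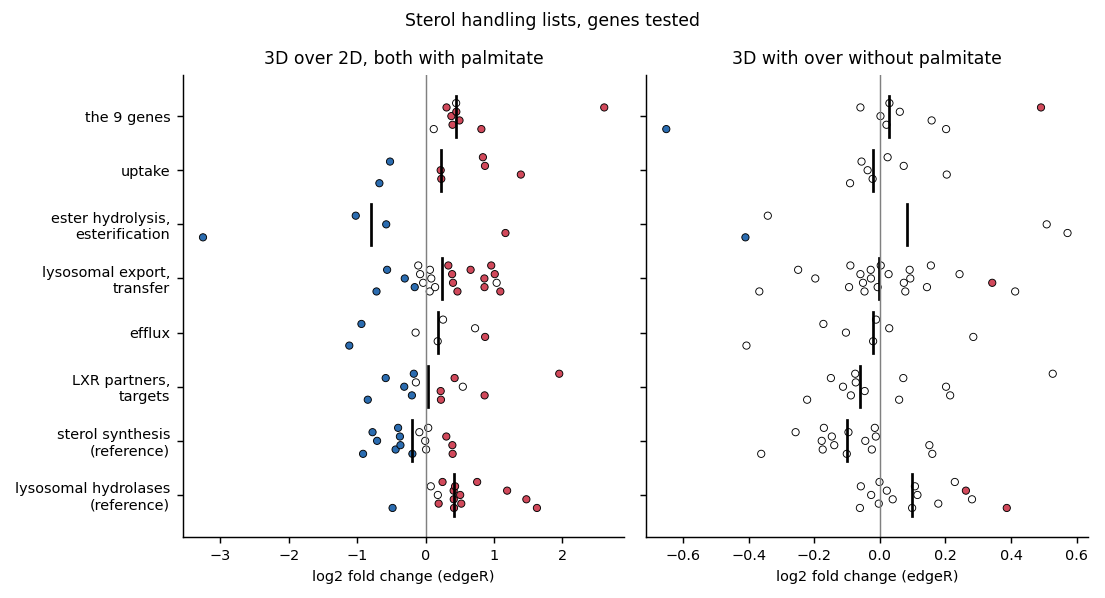
log2 fold change (edgeR) of every tested gene of the 9, of 5 lists of other sterol handling genes and of 2 reference lists, for 3D over 2D with palmitate (left) and 3D with over without palmitate (right; the axes differ in range). Red and blue points have an adjusted p under 0.05, open points do not, and black lines are medians; vertical scatter has no meaning. The left panel holds calls on both sides of 0 in every list but the 9 genes, and the right panel holds few calls.

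With palmitate in 3D, 2 of the 52 further genes were called, close to the 2.19% of all genes. The lipase Lipg was lower, at 179, 185 and 203 CPM with against 259, 224 and 268 CPM without palmitate, a log2 fold change of -0.41 ± 0.089 (SE, edgeR, adjusted p = 0.0310). Tmem97 was higher, at 36.9, 40.3 and 38.1 CPM against 27.8, 31.5 and 31.6 CPM, a log2 fold change of 0.34 ± 0.079 (SE, edgeR, adjusted p = 0.0404). Neither was firm: Lipg lost its call when any 1 of 5 of the 9 libraries was left out, with adjusted p of 0.0553 to 0.143 (edgeR), and Tmem97 when any 1 of 7 was left out, with adjusted p of 0.0513 to 0.207 (edgeR). Both calls were also lost with the Rn45s share as a covariate, as 0 genes of the lists then passed.

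The lists of uptake, of efflux and of LXR partners and targets held 0 genes called with palmitate by edgeR and 0 by DESeq2 on all libraries, with 1 gene each at an unadjusted p under 0.05 by edgeR. The list of sterol synthesis and its control also held 0 called by both tools, with 2 at an unadjusted p under 0.05 by edgeR. Its median log2 fold change was -0.10, with negative values in 13 of 15. Of the LXR-linked genes, Nr1h3 had a log2 fold change of 0.53 (95% interval -0.19 to 1.24), Srebf1 0.06 (-0.15 to 0.26) and Apoe 0.03 (-0.44 to 0.49). The enzymes Lipe and Soat2 had -0.34 (edgeR, adjusted p = 0.266) and 0.51 (edgeR, adjusted p = 0.656). The lysosomal hydrolases Hexa, at 0.39 (edgeR, adjusted p = 0.0358), and Ctsb, at 0.26 (edgeR, adjusted p = 0.0361), were higher with palmitate, and both calls were lost without any 1 library other than replicate 3 from 3D with palmitate. The palmitate comparison as a whole rested on few calls, 173 higher and 102 lower of 12575 genes, which became 106 and 121 when libraries were scaled by size alone. The calls and signs of Nceh1 and Mylip were the same under that scaling.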

How the data were processed

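The file the authors deposited holds raw counts of reads for each gene, with 1 column per library. Per the study's methods and the submitters' processing notes, single-end reads of 50 bases were cleaned with fastq-mcf, inspected with FastQC 0.11.9, aligned to GRCm38 with HISAT2 2.1.0 and counted with HTSeq-count, whose version, annotation release and strand setting are not given in the sources used here. The analysis used edgeR 4.0.16 under R 4.3.3. filterByExpr with the 3 groups left 12575 genes, TMM set the scaling, and a quasi-likelihood fit with group as the only term used all 9 libraries. Genes were called at a Benjamini-Hochberg adjusted p under 0.05 over all genes tested. Standard errors were obtained as the absolute log2 fold change over the root of the F statistic, and levels are CPM. Of the libraries of one group, no pair agreed within sampling noise (chi-square per gene 3.89 to 19.7).

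The 9 genes, the lists and the tests were chosen with earlier results of these data known. Genes named from each list were, in each comparison, the 2 higher and 2 lower calls of smallest p whose groups did not overlap, and Apoe, Nr1h3, Srebf1, Soat2 and Lipe always, and of the reference lists, up to 2 each by the same rule. A further gene of the rule is not reported here. The 5 genes most like Nceh1 and Abca1 had the highest Pearson r of log2 CPM. Gene positions are GENCODE's on GRCm38, and promoter windows RefSeq's. Alternatives were RLE scaling, library size only, other filters, a fit on the 2 compared groups, a replicate block, DESeq2 1.42.0, a minimum log2 fold change of 0.5, each library left out, removal of GC and length trends with natural splines of 4 degrees of freedom, and Rn45s as a covariate or left out. The fit was tested on simulated data with known changes. The smallest library and low counts limit Abca1 and Abcg1 most, and intervals come from the fit.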

Additional observations from a re-analysis of the deposited data

How the results depend on the processing

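Of the 9 genes' log2 fold changes, 176 of 178 alternative values for 3D against 2D and 177 of 178 for palmitate kept their direction, where called, and their side of the threshold. The exceptions came from 2 settings. With the GC and length trend removed, Soat1 turned to -0.10 and Npc1 fell to 0.10 for 3D against 2D, and with the Rn45s share as a covariate Mylip was at -0.68 without a call for palmitate; the causes were not tested. For 3D against 2D the number of the 9 called was 7 with each library left out, 6 with at least 10 counts in every library (which left Abca1 and Abcg1 untested), 5 with the GC and length trend removed and 2 with a log2 fold change of at least 0.5. For palmitate it was 2 with each library left out, 1 with a log2 fold change of at least 0.5 and 1 with the Rn45s covariate. For the 5 sterol lists in 3D against 2D, 38 calls became 24 with a log2 fold change of at least 0.5, and 32 to 39 with a library left out. Their 2 calls for palmitate became 1 by library size only, 1 and 1 with the 2 groups alone (edgeR and DESeq2), 5 with the GC and length trend removed, and 0 with a log2 fold change of at least 0.5 or the Rn45s covariate; with a library left out they became 0 to 8, the 8 without replicate 3 from 3D with palmitate, the smallest library. Over all genes, 8594 calls for 3D against 2D became 5113 with a log2 fold change of at least 0.5, and 7977 to 8866 with a library left out. The 275 calls for palmitate became 617 with no filter, 77 and 182 with the 2 groups alone (edgeR and DESeq2), 119 with a log2 fold change of at least 0.5, 924 with the GC and length trend removed and 44 with the Rn45s covariate. With a library left out they became 71 to 1901, the 1901 again without replicate 3 from 3D with palmitate. The promoter windows with a DR4 match went from 0 to 1 with up to 3 mismatches. Transcript length from the principal transcript, an alternative chosen after seeing the data, raised Lipa to 9.66 and Npc1 to 6.42 CPM per kilobase in 3D with palmitate and left the order of the 9 in place.

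Replicate numbers in the labels did not pair the libraries: deviations of same-numbered libraries correlated at -0.24 to 0.15 over 9 pairs, against -0.17 to 0.28 for the 18 others. With the replicate block, the number of the 9 called stayed at 7 and 2, the sterol lists had 37 and 0 calls, and all genes had 8323 and 111.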
